A study of Rattus norvegicus with 6 samples.

Results

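The lysosomal hydrolases, the membrane proteins of the lysosome and its proton pump are described here in RBL-2H3 cells, a leukemic rat line with the high-affinity IgE receptor that is widely used in place of mast cells. The genes were chosen by name: 29 listed genes and 22 whose symbol begins with Atp6v, or 51 of the 22601 genes in the deposited expression table. The PIO group was 3 libraries from cells treated with PIO (10 µM, 6 h), the agonist of the nuclear receptor PPARγ that the series tested. The control group was 3 libraries from cells of the same line without PIO, and no vehicle is named, so that an effect of a vehicle cannot be told apart. All 6 libraries are labelled wild type (WT). Nothing in the labels says that replicates were grown separately, and the p-values therefore describe the spread among these 6 libraries, which may be technical.

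The granules of mast cells and basophils are secretory lysosomes: they hold acid hydrolases beside histamine and proteoglycan, and release of the hydrolase beta-hexosaminidase is the usual readout of degranulation in RBL-2H3 cells. The hydrolases work at acid pH, which the V-ATPase maintains by pumping protons into the compartment at the cost of ATP. Its peripheral V1 sector hydrolyses ATP in the cytosol, and its membrane-embedded V0 sector carries the protons. Many of these genes share a promoter element, known as CLEAR, that is bound by the related transcription factors TFEB, TFE3 and MITF.

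Expression is given in FPKM, reads per kilobase of gene and scaled to the number of reads in the library, so levels can be set side by side between genes. The library totals behind the values were 14048202 to 14322720 reads with PIO and 14105533 to 15084729 in control. Of 14 mast cell and basophil markers 12 averaged 1 FPKM or more, with summed levels of 4860 to 4986 FPKM with PIO and 4835 to 5062 FPKM in control, and the protease genes Mcpt1 and Tpsab1 were listed at 0. None of the 12 passed. Of the 12, 3 were lower with PIO without overlap, against 8.09% of all genes tested. Rab27b, a GTPase of granule release, averaged 30.1 FPKM with PIO and 41.7 FPKM in control (means, n = 3). Il1rl1, the IL-33 receptor, averaged 193 FPKM with PIO and 215 FPKM in control. Ms4a2, the beta chain of the IgE receptor, averaged 825 FPKM with PIO and 861 FPKM in control. Fcer1g, Mcpt2, Srgn and Gata2 were higher with PIO, all with overlap, where 10.5% of all genes tested were higher without overlap. Fcer1g, the gamma chain of the same receptor, averaged 616 FPKM with PIO and 562 FPKM in control. The rest of the 12 were lower, with overlap, among them Kit at 286 FPKM with PIO and 320 FPKM in control. The 8 macrophage markers summed to 1.77 to 2.09 FPKM with PIO and 1.69 to 1.98 FPKM in control, with Cd14 and Marco listed at 0. The 6 fibroblast markers summed to 4.69 to 5.03 FPKM with PIO and 5.12 to 5.61 FPKM in control, nearly all of it from Col3a1. The 7 T and B cell markers summed to 0.934 to 1.56 FPKM with PIO and 1.59 to 1.75 FPKM in control. The fibroblast sum and the T and B cell sum were lower with PIO without overlap, at levels of a few FPKM, and the part of these marker differences in the results was not tested.

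Most of the lysosomal genes were abundant. Of the 51, 38 averaged 10 FPKM or more and 12 averaged 100 FPKM or more. Together they made up 0.774% ± 0.0116 of all FPKM with PIO and 0.758% ± 0.0155 in control (SD, n = 3 each). The test covered the 10410 genes that averaged 0.5 FPKM or more, 41 of these members among them. The median level of those 41 was 62.3 FPKM, against 13.9 FPKM for all genes tested, and 27 of them lay above the 75th percentile by level. The other 10 members had too few reads to test: Ctsh, Ctsl, Arsb, Tfeb and the pump genes Atp6v1c2, Atp6v1e2, Atp6v1b1, Atp6v1g3, Atp6v0d2 and Atp6v0a4.

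**Figure D1:**
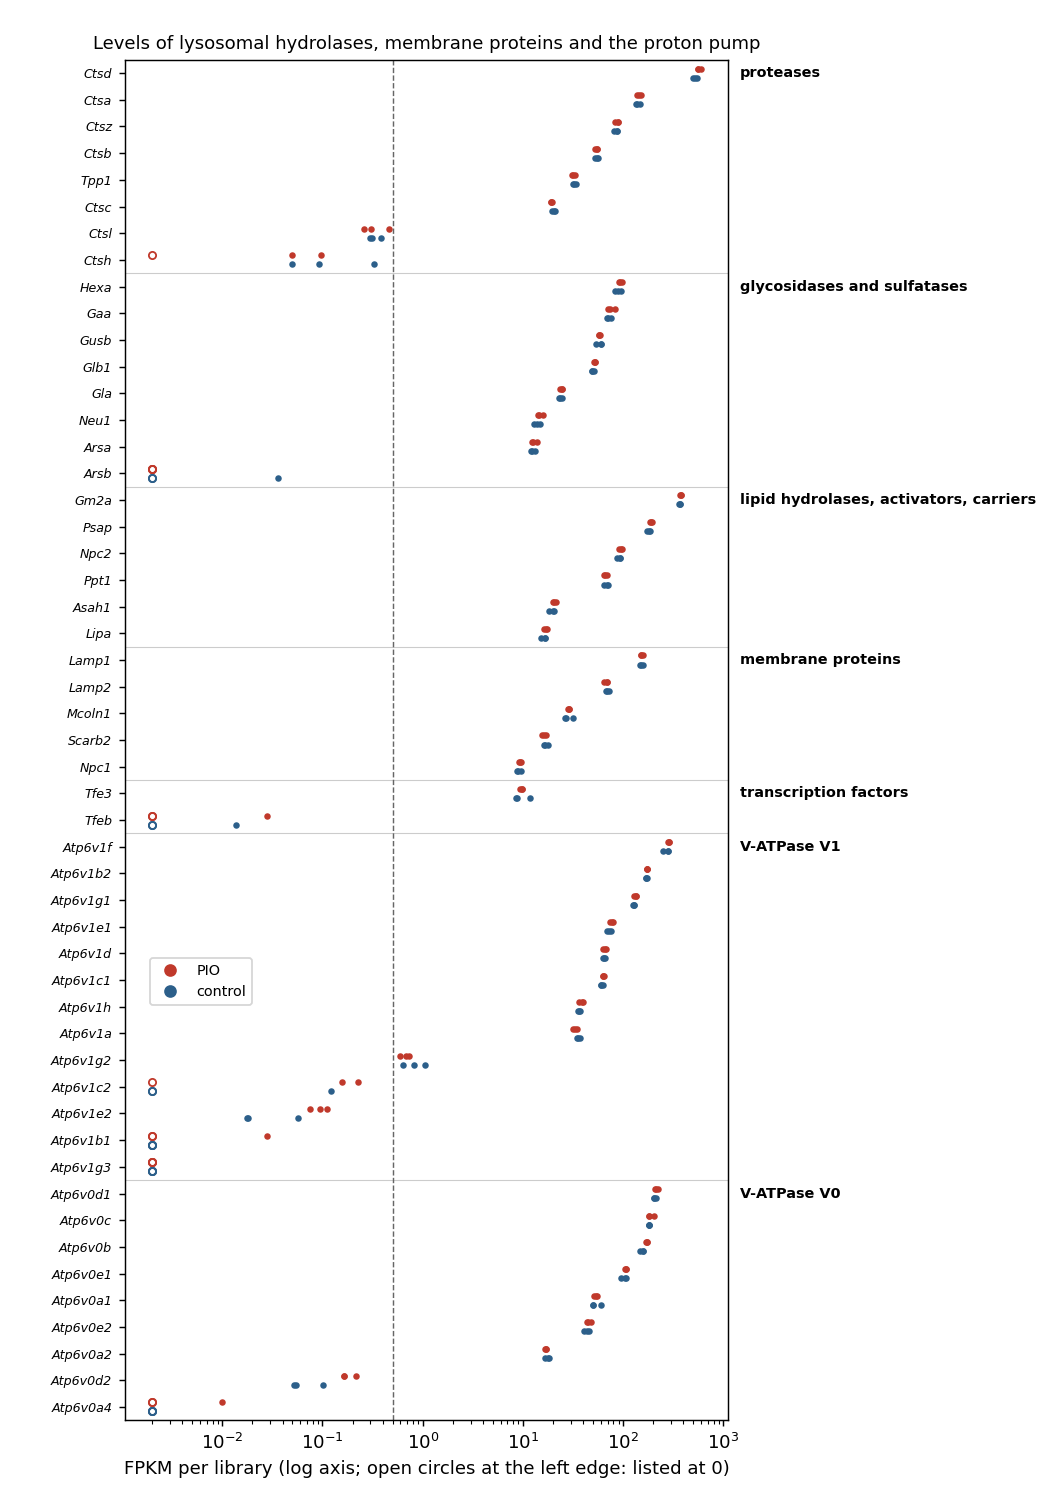
Level of each of the 51 genes in FPKM on a log axis, with 3 PIO libraries (red) above 3 control libraries (blue) and open circles at the left edge for libraries listed at 0. The dashed line marks a mean of 0.5 FPKM, the minimum for testing, and genes within a class span from cathepsin D at a mean of 545 FPKM to genes with almost no reads.

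None of the 41 tested members passed when PIO was compared with control (0 of 41, limma with Benjamini-Hochberg adjustment over all 10410 genes at 0.05). The share of all genes tested that passed was 0.0384%. The smallest adjusted p among the members was 0.28 (limma), for Atp6v0b. At an unadjusted limma p under 0.05 there were 3 members (7.32%), against 12.5% of all genes tested. Of these, Atp6v0b and Ctsd were higher with PIO (2 of 41, against 6.36%) and Atp6v1a was lower (1 of 41, against 6.15%). A test with limma-voom on reads recovered from the FPKM values also passed none. On the log2(FPKM + 0.5) scale the 95% intervals of the change lay within 1.5-fold either way for all 41 members. This scale shrinks the change of a gene as low as Atp6v1g2, so the bound need not hold for its fold in FPKM. Atp6v1g2, the weakest tested gene at 0.666 ± 0.068 FPKM with PIO and 0.838 ± 0.205 FPKM in control (SD, n = 3), had the widest downward reach, with an interval of -0.52 to 0.14 on the log2 scale. Within a group, the SD of a member's 3 values was 3.59% of its mean in the median, where counting reads alone would give 2.44%.

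The PIO and control values did not overlap for 9 of the 41 members (21.95%), against 18.5% of all genes tested. In 7 of the 9 all PIO values were the higher (17.1%, against 10.5% of all genes tested), and in 2 all were the lower (4.88%, against 8.09%). By sign alone 31 members were higher with PIO and 10 lower, where 54% of all genes tested were higher. Some of these signs rest on very small log2 fold changes. Examples are Tfe3 (0.0055), Mcoln1 (0.0071) and Lamp1 (0.0095) among the higher and Gusb (-0.0013) among the lower. The split by sign was 26 to 15 under TPM scaling and 27 to 14 under quantile normalization and under a correction for gene length. The 54% belongs to the main fit, and the matching shares of all genes under these settings were not counted. The median log2 fold change of the 41 was 0.047 and that of all genes tested was 0.0094, on the log2(FPKM + 0.5) scale. Under TPM scaling, which lowered both, the medians were 0.018 for the 41 and -0.018 for all genes tested. They were 0.036 and 0.0040 under quantile normalization, and 0.018 and 0.0019 with the correction for gene length.

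**Figure D2:**
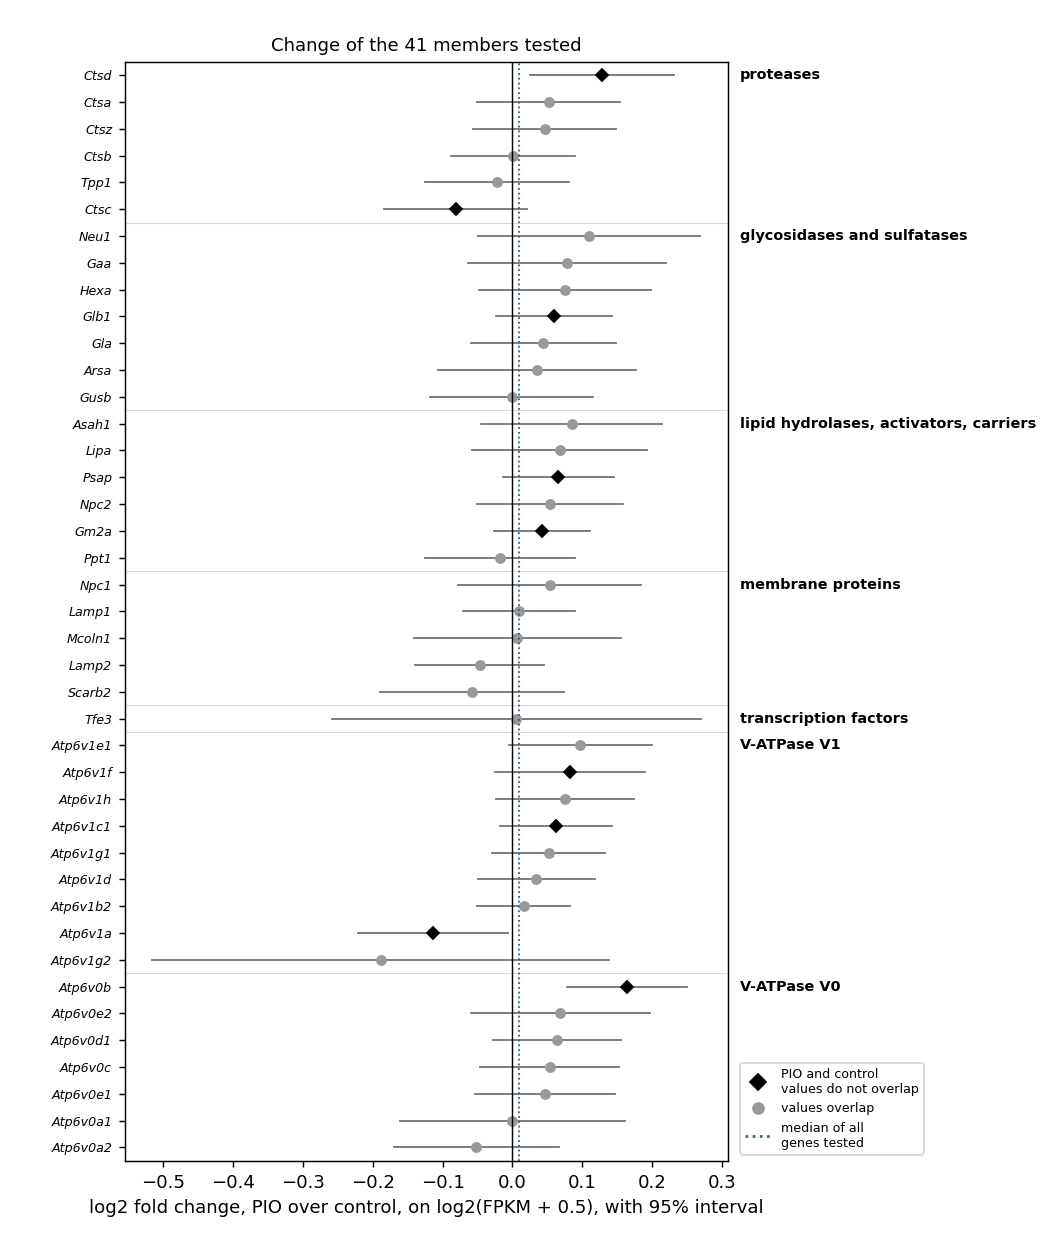
Log2 fold change of the 41 tested genes, PIO over control, with 95% intervals from limma, grouped by class. Black diamonds mark the 9 genes whose PIO and control values do not overlap, and Atp6v0b has the highest value, 0.16, while Atp6v1g2 has the lowest, -0.19.

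Among the lysosomal proteases, 4 of 6 tested genes were higher with PIO, 2 were lower and none passed. Their median log2 fold change was 0.023. Under TPM scaling it was -0.0057, where the median of all genes tested was itself -0.018. With a correction for gene length it was -0.0050, where that of all genes tested was 0.0019. Cathepsin D, an aspartic protease encoded by Ctsd (GeneID 171293), was the most abundant member of all. Ctsd had 559, 556 and 593 FPKM with PIO, against 515, 499 and 549 FPKM in control. All 3 PIO values were above all control values, by the least between PIO replicate 2 and control replicate 3. The mean was 9.25% higher with PIO, or 0.13 on the log2 scale (SE 0.04, limma adjusted p = 0.346), and it was 0.064 under quantile normalization (limma adjusted p = 0.604). Ctsc (GeneID 25423) encodes cathepsin C, the dipeptidyl peptidase that activates granule serine proteases. Ctsc had 19.4, 19.0 and 19.2 FPKM with PIO, against 19.6, 20.3 and 21.0 FPKM in control. Here all PIO values were below all control values, and the log2 fold change was -0.08 (SE 0.04, limma adjusted p = 0.477).

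The other cathepsins overlapped between the groups. Ctsa, the carboxypeptidase that also protects beta-galactosidase and neuraminidase in a complex, averaged 144 ± 5.88 FPKM with PIO and 139 ± 5.96 FPKM in control (SD, n = 3 each). Ctsz, a carboxypeptidase, averaged 87.3 ± 2.98 FPKM with PIO and 84.6 ± 3.77 FPKM in control. The cysteine protease gene Ctsb was at 54.3 ± 1.16 FPKM with PIO and 54.3 ± 1.67 FPKM in control (log2 fold change 0.00, 95% interval -0.09 to 0.09). Tpp1, which encodes a tripeptidyl peptidase, averaged 32.0 ± 1.16 FPKM with PIO and 32.5 ± 1.07 FPKM in control. Relative to Ctsb, Ctsd mRNA was 10.5-fold with PIO and 9.60-fold in control per length (means of 3 libraries).

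The cysteine cathepsins Ctsl and Ctsh were near the limit of detection. Ctsl had 5, 6 and 9 reads with PIO, against 8, 6 and 6 reads in control. Ctsh had 0, 2 and 1 reads with PIO, against 2, 1 and 7 reads in control, so that most of its control reads were in replicate 3. The ratio of PIO to control reads per library total was 1.04 for Ctsl, with a counting interval of 0.529 to 2.03 (95%, exact binomial). For Ctsh it was 0.311, with an interval of 0.0549 to 1.21.

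Of the 6 tested glycosidases, which trim sugar chains, and the sulfatase Arsa, 6 of 7 genes were higher with PIO and none passed. Hexa (GeneID 300757), the alpha subunit gene of beta-hexosaminidase, had 90.0, 92.8 and 97.8 FPKM with PIO, against 88.1, 83.4 and 94.9 FPKM in control. The groups overlapped, 0.08 higher with PIO on the log2 scale (limma adjusted p = 0.575). For Hexa that difference was 0.031 without control replicate 2, 0.043 without PIO replicate 3 and 0.12 without control replicate 3.

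Glb1 (GeneID 316033), beta-galactosidase, had 51.2, 51.9 and 52.7 FPKM with PIO, against 49.3, 49.0 and 51.2 FPKM in control. The groups did not overlap, but the lowest PIO value (51.202) lay only just above the highest control value (51.179). Neu1, a sialidase, averaged 14.9 ± 0.985 FPKM with PIO and 13.8 ± 0.979 FPKM in control, the largest log2 fold change of this class at 0.11 (SE 0.07, limma adjusted p = 0.53). For Neu1 it was 0.058 without PIO replicate 3 and 0.063 without control replicate 2. Without PIO replicate 1 it was 0.15, and without control replicate 1 it was 0.16. Gaa, the acid alpha-glucosidase of glycogen breakdown, averaged 76.2 ± 6.33 FPKM with PIO and 72.1 ± 3.23 FPKM in control, and its log2 fold change of 0.08 was 0.011 without PIO replicate 3.

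Gla, alpha-galactosidase, averaged 24.2 ± 0.588 FPKM with PIO and 23.5 ± 0.856 FPKM in control. Gusb, beta-glucuronidase, was the 1 lower gene of the class at 57.8 ± 0.465 FPKM with PIO and 57.9 ± 3.91 FPKM in control. The sulfatases are the enzymes that remove sulfate from lipids and glycosaminoglycans. Arsa averaged 12.8 ± 0.789 FPKM with PIO and 12.5 ± 0.582 FPKM in control. Arsb had no read in any PIO library and 1 read, the smallest number its value allows, in control replicate 3. A listed 0 need not be absence: Polr2h, a subunit of RNA polymerases that every cell uses, was listed at 0 in all 6 libraries.

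The enzymes, activators and carriers of lysosomal lipid breakdown had 5 of 6 genes higher with PIO, and none passed. Gm2a (GeneID 282838), the activator protein that presents ganglioside to beta-hexosaminidase, had 376, 369 and 378 FPKM with PIO, against 367, 366 and 357 FPKM in control. Psap (GeneID 25524), the precursor of the saposins that present other sphingolipids, had 185, 188 and 193 FPKM with PIO, against 183, 174 and 184 FPKM in control. Neither gene overlapped between the groups, and the log2 fold changes were 0.04 for Gm2a (SE 0.03, limma adjusted p = 0.572) and 0.07 for Psap (SE 0.03, limma adjusted p = 0.467). Under quantile normalization that of Gm2a was -0.0072.

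The remaining lipid genes overlapped. Asah1, acid ceramidase, averaged 20.7 ± 0.785 FPKM with PIO and 19.5 ± 1.16 FPKM in control (SD, n = 3 each). Lipa, the acid lipase that splits cholesteryl esters and triglycerides, averaged 16.9 ± 0.743 FPKM with PIO and 16.1 ± 0.719 FPKM in control. Ppt1, which removes palmitate from proteins, was the 1 lower gene at 67.0 ± 2.38 FPKM with PIO and 67.8 ± 3.32 FPKM in control. Npc2, the soluble carrier that hands cholesterol to Npc1, averaged 94.6 ± 2.88 FPKM with PIO and 91.2 ± 4.56 FPKM in control. Npc1 itself was far lower in level, so that the ratio of Npc2 to Npc1 was 10.1 ± 0.30 with PIO and 10.1 ± 0.966 in control.

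**Figure D3:**
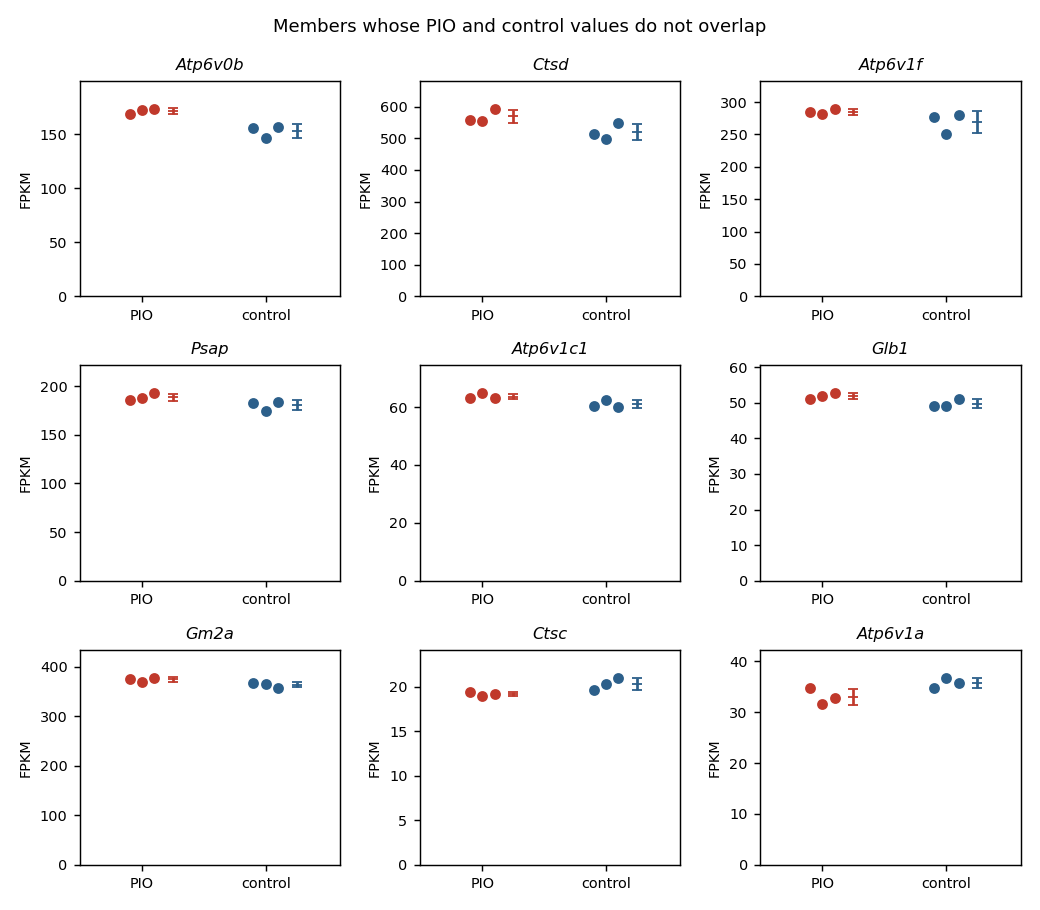
FPKM in each library for the 9 tested genes whose PIO and control values do not overlap, PIO on the left and control on the right, with the mean and SD of 3 libraries beside the points and the axis from 0. The separations are small against the levels: the mean of Atp6v0b is 12% higher with PIO and that of Atp6v1a differs by -7.65%.

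The membrane proteins had 3 of 5 genes higher with PIO and 2 lower, none past the test. Their median of 0.0071 turned negative under TPM scaling, quantile normalization and a correction for gene length. Under TPM scaling it was -0.022, where the median of all genes tested was itself -0.018. Lamp1 and Lamp2 encode the heavily glycosylated proteins that line the lysosomal membrane. Lamp1 had 151, 152 and 157 FPKM with PIO, against 152, 148 and 157 FPKM in control (log2 fold change 0.01, 95% interval -0.07 to 0.09). Lamp2 had 68.4, 68.4 and 65.0 FPKM with PIO, against 68.6, 67.8 and 72.2 FPKM in control (-0.05, 95% interval -0.14 to 0.05). Scarb2, the receptor that carries glucocerebrosidase to lysosomes, averaged 16.2 ± 0.774 FPKM with PIO and 16.9 ± 0.871 FPKM in control. Npc1, the membrane cholesterol transporter, averaged 9.37 ± 0.199 FPKM with PIO and 9.01 ± 0.433 FPKM in control.

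Mcoln1 (GeneID 288371), the lysosomal calcium channel, had 28.5, 28.7 and 28.0 FPKM with PIO, against 26.6, 27.0 and 31.5 FPKM in control. Control replicate 3 was the highest of the 6, and without it the log2 fold change was 0.083 (limma adjusted p = 0.473) in place of 0.0071. The same library was the highest for Tfe3 and for the pump gene Atp6v0a1, whose log2 fold changes without it were 0.15 (limma adjusted p = 0.408) and 0.083 (limma adjusted p = 0.486). Without control replicate 2 the log2 fold changes were -0.024 for Mcoln1, -0.082 for Tfe3 and -0.044 for Atp6v0a1.

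Of the transcription factors only Tfe3 was measurable. Tfe3 (GeneID 317376) had 9.87, 9.28 and 9.76 FPKM with PIO, against 8.81, 8.44 and 11.9 FPKM in control, and the change was 0.01 on the log2 scale (SE 0.11, limma adjusted p = 0.99). Tfeb (GeneID 316214) had 2, 0 and 0 reads with PIO, against 0, 1 and 0 reads in control. Mitf, a further factor of the family and no member of the set, had 27.2, 26.7 and 26.4 FPKM with PIO, against 29.4, 31.3 and 32.4 FPKM in control. All PIO values of Mitf were below all control values, and it did not pass (log2 fold change -0.21, SE 0.05, limma adjusted p = 0.27). Per length, the order of the mean levels of Mitf, Tfe3 and Tfeb was the same in both groups. Mitf was first (26.8 FPKM with PIO and 31.0 FPKM in control), then Tfe3 (9.64 FPKM with PIO and 9.71 FPKM in control). Tfeb, with no read in 4 of 6 libraries, was last. Tfec, also of this family and too low to test, averaged 0.012 FPKM with PIO and 0.018 FPKM in control.

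The letters of the CLEAR element, which was described from lysosomal genes, were looked for in the promoters. RefSeq promoters of the rat assembly GRCr8, from 250 bases before to 50 after the start of the gene, matched 39 of the 51 members. The letters CACGTG (the E-box, the same on both strands) with T before and A after, the core of CLEAR, stood in 5 of the 31 tested members with a promoter (16.1%). The share was 1.92% of 8384 tested genes with a promoter. The E-box with any flanks, which includes those cores, stood in 7 of the 31 (22.6%), against 10.3%. The 5 with the core were Ctsd, Atp6v0d1, Lamp1, Atp6v0e1 and Mcoln1, with a median level of 152.8 FPKM, against 55.6 FPKM for the 26 members without it. Over all tested genes with a promoter, the median level was 18.1 FPKM with the core and 14.8 FPKM without it. Gaa and Glb1 held an E-box with other flanks. For Atp6v0e1 and Mcoln1 the core lay past the start of the gene, and for the others the stretch before the start is printed here to show its place, with the core in capitals, each read 5′ to 3′ on the minus strand of GRCr8 from chr1:206968822-206968853, chr19:50357273-50357322 and chr16:83075074-83075150.
Ctsd: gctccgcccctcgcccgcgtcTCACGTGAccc
Atp6v0d1: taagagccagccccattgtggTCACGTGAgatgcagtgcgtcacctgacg
Lamp1: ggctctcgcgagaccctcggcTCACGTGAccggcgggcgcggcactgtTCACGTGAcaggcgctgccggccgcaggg
The Lamp1 stretch holds 2 cores. The median log2 fold change was 0.047 for the 5 members with a core and 0.045 for the 26 without. Over all tested genes with a promoter it was 0.028 with a core and 0.011 without. A PPAR response element, read as 2 copies of AGGTCA with 1 base between them on either strand, stood in 0 of the 31 windows and in 0.0477% of those of tested genes, so its letters are rare in windows of this length.

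The V1 sector of the pump had 7 of 9 tested genes higher with PIO and 2 lower, and none passed. Subunits A and B alternate in the ring that hydrolyses ATP, and their transcripts differed in level. Atp6v1a (GeneID 685232), the catalytic subunit gene, had 34.7, 31.6 and 32.8 FPKM with PIO, against 34.8, 36.8 and 35.7 FPKM in control. All PIO values were below all control values, with PIO replicate 1 close to control replicate 1, and the log2 fold change was -0.11 (SE 0.05, limma adjusted p = 0.382). Atp6v1b2, the B subunit gene, was at 173 ± 1.53 FPKM with PIO and 171 ± 1.24 FPKM in control (SD, n = 3; log2 fold change 0.02, 95% interval -0.05 to 0.08), with a negative sign under TPM scaling and quantile normalization. The ratio of Atp6v1b2 to Atp6v1a was 4.93, 5.50 and 5.31 with PIO, against 4.95, 4.62 and 4.79 in control, with PIO replicate 1 inside the control range.

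Atp6v1f (GeneID 116664), a small subunit of the central stalk, was the most abundant V1 gene. Atp6v1f had 284, 281 and 289 FPKM with PIO, against 278, 250 and 280 FPKM in control. Atp6v1c1, the subunit through which V1 and V0 are coupled and uncoupled, had 63.2, 64.8 and 63.0 FPKM with PIO, against 60.4, 62.5 and 59.9 FPKM in control. The groups did not overlap in either gene, and the log2 fold changes were 0.08 (limma adjusted p = 0.494) for Atp6v1f and 0.06 (limma adjusted p = 0.484) for Atp6v1c1. Without control replicate 2, the lowest library for Atp6v1f, its change was 0.029, and without control replicate 3 it was 0.11.

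The peripheral stalk subunit gene Atp6v1e1 had 74.7, 77.7 and 78.7 FPKM with PIO, against 75.5, 72.2 and 68.4 FPKM in control (log2 fold change 0.10, SE 0.04, limma adjusted p = 0.419). Its partner in the stalk, Atp6v1g1, averaged 132 ± 3.97 FPKM with PIO and 127 ± 2.03 FPKM in control. The remaining subunit genes overlapped as well. Atp6v1d of the central stalk averaged 65.7 ± 1.86 FPKM with PIO and 64.1 ± 1.09 FPKM in control. Atp6v1h, the regulatory subunit, averaged 38.2 ± 1.66 FPKM with PIO and 36.3 ± 0.493 FPKM in control.

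The V0 sector had 5 of 7 tested genes higher with PIO and 2 lower, and none passed. Atp6v0b (GeneID 298451), a proteolipid of the rotating ring, had 169, 172 and 173 FPKM with PIO, against 156, 146 and 157 FPKM in control. All PIO values were above all control values, and the change was 0.16 on the log2 scale (SE 0.04, 95% interval 0.08 to 0.25, limma adjusted p = 0.28), with the smallest unadjusted p of all members, 0.0022 (limma). Over the alternative settings its adjusted p lay between 0.195 (limma, without PIO replicate 1) and 0.662 (limma, without PIO replicate 3). Atp6v0c, the main proteolipid of the ring, had 183, 182 and 201 FPKM with PIO, against 181, 183 and 181 FPKM in control. PIO replicate 3 was above the rest, and the log2 fold change of 0.05 was 0.0063 without that library and 0.078 without PIO replicate 2. Atp6v0e1 averaged 106 ± 0.518 FPKM with PIO and 102 ± 5.60 FPKM in control. Atp6v0e2 averaged 45.5 ± 2.40 FPKM with PIO and 43.4 ± 2.50 FPKM in control, and both overlapped. The 2 lower genes encode forms of subunit a: Atp6v0a1 averaged 53.3 ± 2.01 FPKM with PIO and 53.5 ± 5.55 FPKM in control, and Atp6v0a2 16.9 ± 0.159 FPKM with PIO and 17.6 ± 0.954 FPKM in control. Atp6v0d1, which joins the ring to the stalk of V1, averaged 215 ± 9.38 FPKM with PIO and 205 ± 4.73 FPKM in control.

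Several places in the pump can be filled by more than 1 paralog, and the share of each paralog in its family's FPKM was taken as a measure of the transcripts, since the proteins were not measured. In the B, C, E, G and d families, 1 gene each (Atp6v1b2, Atp6v1c1, Atp6v1e1, Atp6v1g1 and Atp6v0d1) made up nearly all of the FPKM. Atp6v1b2 was 99.995% of the B family with PIO, and Atp6v0d1 was 99.9% of the d family with PIO and 99.97% in control. Atp6v1g1 was 99.5% ± 0.0387 of the G family with PIO and 99.3% ± 0.159 in control (SD, n = 3), with Atp6v1g2 as the rest and Atp6v1g3 listed at 0 in all 6 libraries. The a and e families were mixed. For subunit a, which with the proteolipid ring forms the proton path and directs the pump to its membrane, Atp6v0a1 made up 69.8% ± 0.583 with PIO and 68.7% ± 1.70 in control. Atp6v0a2 made up 22.1% ± 0.521 with PIO and 22.6% ± 1.83 in control. Tcirg1, the a3 gene, which the Atp6v pattern does not reach, made up 8.05% ± 0.307 with PIO and 8.67% ± 0.318 in control. In the family of the small membrane subunit e, Atp6v0e1 made up 69.9% ± 1.10 with PIO and 70.2% ± 2.18 in control, and Atp6v0e2 the rest.

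The paralogs known for specialised tissues were at the edge of detection, and reads of near-identical copies can be misassigned. Atp6v1e2, a testis paralog, had 5, 6 and 4 reads with PIO, against 1, 3 and 1 reads in control, so all PIO libraries were the higher. The ratio per library total was 3.11, with a counting interval of 1.07 to 10.9 (95%, exact binomial), which covers counting error only. Atp6v0d2, the osteoclast paralog, had 3, 4 and 3 reads with PIO, against 2, 1 and 1 reads in control (ratio 2.59, interval 0.747 to 11.3). Atp6v1c2 had 0, 5 and 7 reads with PIO, against 0, 0 and 4 reads in control. The kidney paralogs Atp6v1b1 and Atp6v0a4 each had 1 read, the smallest number the value allows, in 1 PIO library and 0 in the others. Most of these counts were near the floor of 3 reads per library, and these genes were set side by side only after their values were known.

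**Figure D4:**
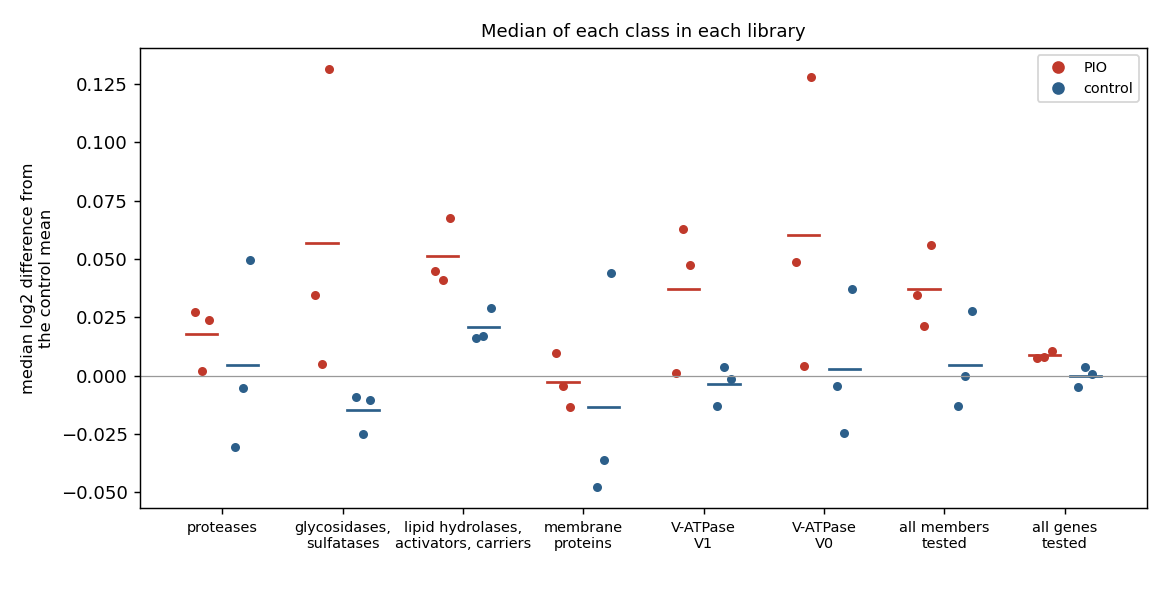
Median over the tested genes of 6 classes, of all tested members and of all tested genes (the single tested transcription factor, Tfe3, is not drawn) of the log2 difference from the gene's own control mean, in each of 3 PIO libraries (red, left) and 3 control libraries (blue, right), with the mean of each group as a bar. PIO libraries lie between -0.014 and 0.13, control libraries between -0.048 and 0.05, and PIO replicate 3 has the highest values for glycosidases and V0.

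The classes were compared library by library as the median difference of their tested genes from the control mean. For the glycosidases and sulfatases it was 0.034, 0.005 and 0.13 in the PIO libraries, against -0.0092, -0.025 and -0.011 in control. For the V0 sector it was 0.049, 0.0041 and 0.13 with PIO, against -0.0043, -0.024 and 0.037 in control, so the groups overlapped. For the lipid genes it was 0.045, 0.041 and 0.068 with PIO, against 0.016, 0.017 and 0.029 in control. The proteases, the membrane proteins and the V1 sector overlapped as well. The median of all 10410 genes tested was also higher in each PIO library (0.0077, 0.0081 and 0.010) than in each control library (-0.0048, 0.0036 and 0.00065), and no test compared the classes.

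PIO replicate 3 held the highest value of the 6 libraries for 19 of the 41 tested members (46.3%), against 19.8% of all genes tested. Control replicate 2 held the lowest for 16 (39.0%), against 17.1%. The median of the 41 was 0.026 without PIO replicate 3 and 0.031 without control replicate 2, in place of 0.047. The split by sign was 29 higher and 12 lower without PIO replicate 3 and 30 and 11 without control replicate 2, and ranged from 29 to 33 higher over the 6 libraries left out in turn.

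Gene length moved with the sign of the change across the whole table. Genes under 1000 bases had a median log2 fold change of 0.064 (911 genes, 73.9% higher with PIO), and genes of at least 4000 bases one of -0.028 (3269 genes, 38.3% higher). The 4 members under 1000 bases, all pump genes, were all higher, with a median of 0.075. From 1000 to 2000 bases 12 of 15 members were higher (80%, median 0.052), against 65.7% of all genes of that length (median 0.035). From 2000 to 4000 bases it was again 12 of 15 (80%, median 0.044), against 54.9% of all genes (median 0.0095). Of the 7 members of at least 4000 bases, 3 were higher and 4 lower. Atp6v0b is 666 bases long in the table and Atp6v1f 642, whereas Atp6v1a has 4275 and Ctsc 8111. After each library's trend with length was subtracted, the log2 fold change was 0.10 for Atp6v0b, 0.11 for Ctsd, -0.10 for Atp6v1a, -0.040 for Ctsc and 0.020 for Atp6v1f. The median of the 41 members was then 0.018 and that of all genes tested 0.0019, and that of the proteases turned to -0.0050.

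**Figure D5:**
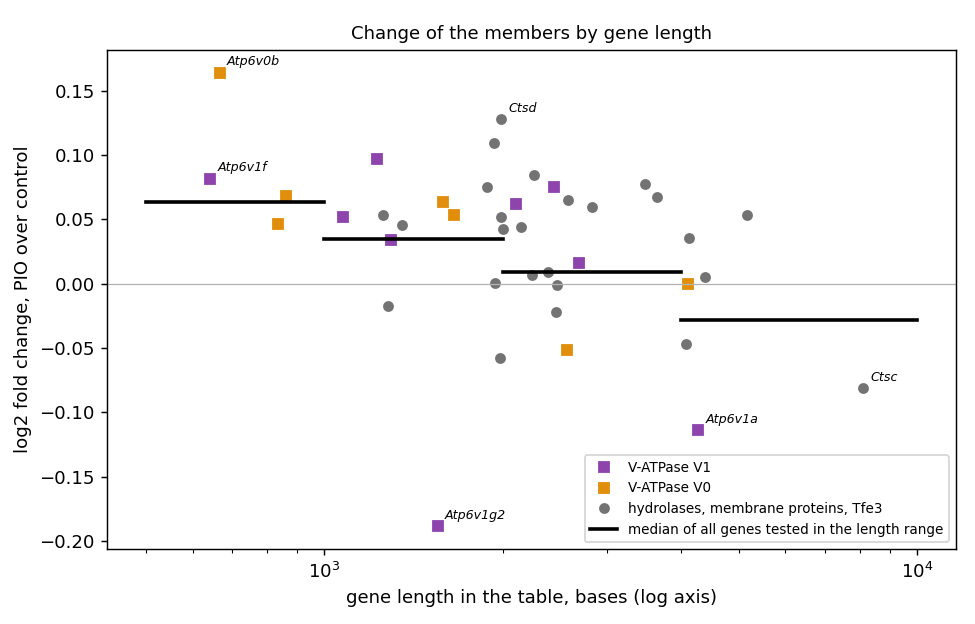
Log2 fold change of the 41 tested genes, PIO over control, against gene length in bases on a log axis, with V1 genes in purple, V0 genes in orange and the rest in grey. Black lines give the median of all tested genes in each length range, 0.064 for genes under 1000 bases and -0.028 for those of at least 4000 bases.

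A list of other lysosomal genes was counted beside the set. It has 61 genes in the data, of which 53 were tested and none passed. By sign 33 were higher with PIO and 20 lower, and their median was 0.02 on the log2 scale. Under TPM scaling it was -0.0086, where the median of all genes tested was itself -0.018. The smallest unadjusted p belonged to Ids, the iduronate sulfatase of heparan and dermatan sulfate breakdown. Ids had 55.8, 45.8 and 45.9 FPKM with PIO, against 59.5, 65.6 and 64.6 FPKM in control (log2 fold change -0.37, SE 0.08, limma adjusted p = 0.27). Mitf, given with the transcription factors, was next. Among the higher genes, Lamtor5, a subunit of the Ragulator complex that anchors mTORC1 to lysosomes, had 80.4, 81.8 and 82.0 FPKM with PIO, against 75.9, 67.3 and 70.0 FPKM in control (0.20, SE 0.05, limma adjusted p = 0.284). Dnase2, the acid DNase, averaged 73.7 ± 1.54 FPKM with PIO and 67.6 ± 2.18 FPKM in control (0.12, SE 0.04, limma adjusted p = 0.325). In all 4, named for their small p, the PIO and control values did not overlap. Over the whole list that held for 11 of 53 (20.8%, against 18.5% of all genes tested), and 7 of 53 had an unadjusted limma p under 0.05 (13.2%, against 12.5%).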

How the data were processed

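RNA was sequenced from 6 libraries of RBL-2H3 cells, 3 with PIO and 3 control. Per the labels' protocols, RNA was taken with TRIzol and libraries were made with a stranded mRNA kit. The deposited values are FPKM, computed by the authors. Tools named in the submitters' processing notes include Cufflinks and HTSeq, the aligners BWA 0.7.5a and HISAT2 2.2.1.0, and Trimmomatic 0.36. Their roles are not given in the sources used here, and the build named there, GRCh38, is human while the gene identifiers are those of the rat, so no coordinates of the deposited table are printed. How reads shared by paralogs were assigned is not stated. For 27 genes a symbol read as a date was replaced by way of its GeneID.

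Each FPKM value is a whole number of reads times a step set by gene length and library. Whole reads (tolerance 1e-04, or 0.001 where a gene had many reads) and a whole length were recovered for 15427 of 15429 genes above 0, giving the library totals, read numbers and lengths. Where several read numbers fitted, the smallest was taken, so the reads and length of a gene with few reads may be minimum values. Recovered reads made up 99.5% of each total. Testing used limma 3.58.1 (R 4.3.3) on log2(FPKM + 0.5), for genes averaging 0.5 FPKM or more (group as the only term, variance trend, two-sided, Benjamini-Hochberg over all genes tested, 0.05). This scale understates changes of low genes. An exact permutation test of 3 against 3 cannot go below p = 0.1, so none was run. The code was tested on simulated data. Promoter sequences are those of RefSeq, GRCr8. Python 3.11.15, pandas 2.3.3, scipy 1.17.1 and matplotlib 3.10.9 were used.

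The members, classes and lists were chosen with earlier results of these data known. Genes were named by class: the 2 smallest p in each direction, the highest and lowest levels, genes whose groups do not overlap, untested genes and pump paralogs. Tcirg1 and Polr2h were added for comparison. Alternatives were other pseudocounts, filters, scalings, variance fits, limma-voom on recovered reads, the replicate number as a block and each library left out.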

Additional observations from a re-analysis of the deposited data

How the results depend on the processing

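No member and no other lysosomal gene that was tested passed under any of the 19 alternatives (40 members were tested at a minimum of 1 or 5 FPKM, without Atp6v1g2), and the lowest adjusted p of a member was 0.195 (limma, without PIO replicate 1). Of the 41 members, 28 kept their sign in every alternative they were tested in (17 for Atp6v1g2), 22 higher and 6 lower. Leaving out 1 library moved the change of 32 members by over 1.5 times or to the other sign. Over all genes tested 4 passed, against 1 without a filter, 2 without a variance trend, and 7 with a robust variance fit and with limma-voom on recovered reads. Under TPM scaling the median log2 fold change was 0.018 for all members, 0.030 for the lipid genes, 0.031 for the glycosidases and sulfatases, 0.022 for V1, 0.024 for V0 and -0.0086 for the other lysosomal genes. With the gene length correction it was 0.018 for all members, 0.038 for the lipid genes, 0.0086 for V1 and 0.018 for V0. With 1 library left out it ranged from 0.026 to 0.050 for all members, from 0.043 to 0.077 for the lipid genes, from 0.030 to 0.079 for the glycosidases and sulfatases, from 0.026 to 0.082 for V0 and from -0.037 to 0.032 for the membrane proteins. The median of the proteases turned to -0.0057 under TPM scaling. The median of all genes tested was -0.018 under TPM scaling.

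Replicate numbers are shared by the groups. Same-numbered libraries deviated together only weakly (correlations across genes of -0.068, 0.028 and 0.078), and differently numbered ones gave -0.094 to 0.082. The main fit had the group as its only term and did not pair the libraries. So few correlations cannot decide whether same-numbered libraries share a culture or day. With the replicate number as a block 3 genes passed, no member did, and the lowest adjusted p of a member was 0.383 (limma). Depth limits the 10 untested members: the counting interval of the ratio left out 1 for Atp6v1e2 alone among them. These intervals cover counting error only and were not adjusted for the number of genes, so no difference is read from them.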
